A study of Mus musculus with 11 samples.

Results

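The 8 genes described here, Egr1, Egr2, Egr3, Nr4a1, Nr4a2, Nr4a3, Cd69 and Myc, are early genes of T cell stimulation, followed in mouse CD4 T cells transduced with FoxP3, with 1 of 2 mutant forms of it or with an empty vector. They were chosen by name, and all probe sets annotated with exactly 1 of these symbols were used, which gave 17 probe sets of the 34945 with a single symbol. Egr1, Nr4a1, Cd69 and Myc had 1 probe set each, Egr2 and Egr3 had 2, Nr4a3 had 3 and Nr4a2 had 6. Total RNA was measured on Affymetrix arrays, with 2 arrays of cells transduced with R397W FoxP3, 3 with A384T FoxP3, 3 with WT FoxP3 and 3 mock arrays of cells that received the MIGR1 vector alone. FoxP3 is the forkhead factor of regulatory T cells, and both substitutions lie in its DNA-binding forkhead domain. All groups shared the rest of the treatment. Naive CD4 T cells from BALB/cA lymph nodes and spleen were stimulated with 0.5 µg/ml anti-CD3e, IL-2 at 10 ng/ml and syngeneic feeder splenocytes that had been depleted of T cells and given 20 Gy. Retrovirus was added 24 h later, and GFP-high CD4+ cells were taken by sorting at day 7, so that FoxP3 was driven by a vector in activated T cells; the labels name no deletion of the endogenous gene. The age of the mice and any restimulation before the sort are not given in the labels.

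Early genes are transcribed within minutes to hours of antigen receptor engagement, before new protein is made, and most of their transcripts decay quickly. EGR1, EGR2 and EGR3 are zinc-finger transcription factors induced through Ras and ERK, and EGR2 and EGR3 are tied to T cell anergy. NR4A1, NR4A2 and NR4A3 are orphan nuclear receptors induced by receptor signalling and calcium, and they take part in regulatory T cell development. CD69 is a lectin-like membrane protein that removes the sphingosine phosphate receptor S1PR1 from the cell surface and thereby holds activated cells in tissue. MYC is the helix-loop-helix factor that drives growth and proliferation of activated T cells.

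Each value below is on the log2 scale, relative to the probe set's median over the 3 mock arrays, and 1 unit is a doubling. The deposited table was centred in this way at all 45101 probe sets. Expression levels were therefore lost, a gene near 0 on every array may be expressed or not, and no level can be set against that of another probe set. A probe set was called when its adjusted p in limma, a linear model with a shared estimate of the spread, was under 0.05 over all 34945 probe sets. A gene was called when at least 1 of its probe sets was, whereas shares over all probe sets count single probe sets. In bulk RNA, fewer cells of a type and less RNA per cell cannot be told apart. Separate cultures or mice for the arrays of a group are not named in the labels, so the p-values reflect array-to-array spread that may be technical.

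Promoter sequence was at hand for 4 of the 8 genes, Egr2 and the 3 Nr4a genes, and is shown for all 4. Its link to the array values was not tested. The sequences are the 250 bases before the annotated start, from RefSeq on build GRCm38.p6, written 5′ to 3′ on the gene's strand. Capitals mark the half-site of the cyclic AMP response element (TGACG, or CGTCA where it lies on the opposite strand), and in Egr2 also the CArG box bound by serum response factor. For Egr2, which has 5 annotated starts, the window with the most matches is shown.
Egr2 (chr10:67537619-67537868, plus strand): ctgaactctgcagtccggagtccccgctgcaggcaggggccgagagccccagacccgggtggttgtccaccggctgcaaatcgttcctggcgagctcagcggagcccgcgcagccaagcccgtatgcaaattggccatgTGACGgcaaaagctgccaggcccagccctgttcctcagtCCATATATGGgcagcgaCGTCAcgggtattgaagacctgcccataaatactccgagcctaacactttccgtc
Nr4a1 (chr15:101266596-101266845, plus strand): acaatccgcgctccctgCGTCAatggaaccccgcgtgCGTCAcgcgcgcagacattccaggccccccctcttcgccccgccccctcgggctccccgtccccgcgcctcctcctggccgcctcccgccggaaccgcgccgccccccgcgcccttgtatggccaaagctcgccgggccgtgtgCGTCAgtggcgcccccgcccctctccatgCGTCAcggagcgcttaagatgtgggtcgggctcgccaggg
Nr4a3 (chr4:48045055-48045304, plus strand): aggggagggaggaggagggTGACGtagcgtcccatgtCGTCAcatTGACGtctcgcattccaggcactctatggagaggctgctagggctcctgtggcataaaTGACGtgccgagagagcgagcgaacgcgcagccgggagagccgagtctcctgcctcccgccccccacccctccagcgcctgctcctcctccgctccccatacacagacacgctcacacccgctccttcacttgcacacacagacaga
Nr4a2 (chr2:57124004-57124253, minus strand): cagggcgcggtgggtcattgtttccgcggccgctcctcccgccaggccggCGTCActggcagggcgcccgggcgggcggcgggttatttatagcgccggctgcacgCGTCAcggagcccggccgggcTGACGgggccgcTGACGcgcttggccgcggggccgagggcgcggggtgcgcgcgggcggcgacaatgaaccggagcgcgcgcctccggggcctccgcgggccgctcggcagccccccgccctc

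The half-site stood 4 times in each of the Nr4a1, Nr4a3 and Nr4a2 windows and 2 times in that of Egr2. Among all 32851 promoter windows of this length, 17.8% held at least 1 half-site on either strand, 3.9% at least 2 and 0.137% at least 4. The Egr2 window also held 1 CArG box, which 1.47% of all windows held. Because the Egr2 window was picked for its matches, its counts cannot be set against shares over single windows: of its 5 windows, 3 held 2 half-sites and 2 held none, and 4 held a CArG box. An EGR site, GCGNGGGCG on either strand, was found 1 time each in the Nr4a1 and Nr4a2 windows, against 4.7% of all windows. None of the 4 windows held the full element TGACGTCA, which contains the half-site on both strands, the AP-1 site TGANTCA or the NR4A monomer site AAAGGTCA, which 1.55%, 6.75% and 1.34% of all windows held. These are matches of letters in a window and describe neither binding nor activity. Matches were counted whether or not they overlapped.

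Of the 17 probe sets, 1 was called in WT over mock (Cd69, higher), and 0 were called in A384T over mock or R397W over mock. Over all single-symbol probe sets the called shares were 3.21% (1.81% higher), 2.7% and 0% in these comparisons, which use the same mock arrays. In R397W over mock limma called 0 of 34945 probe sets, with 612 (1.75%) at an unadjusted p under 0.05, and none of the 17 was among those. Between the FoxP3 forms, 1 of 17 was called in R397W over WT (Cd69, lower), 0 in A384T over WT and 0 in R397W over A384T, against 2.15% (1.19% lower), 0.114% and 1.83% of all probe sets. Values of the 2 groups did not overlap at 2 of the 17 in each of WT over mock, A384T over mock, R397W over mock and A384T over WT, against 16.2%, 15.3%, 11.8% and 7.72% of all probe sets. Those probe sets belonged to Cd69 and Nr4a3, to Nr4a3 and Myc, to Nr4a2 alone, and to Egr3 and Myc, in the same order of comparisons. They did not overlap at 6 of 17 in R397W over WT and at 5 of 17 in R397W over A384T, against 24.3% and 23.6%. The median difference over the 17 was 0.03 for R397W over mock, -0.12 for A384T over mock and 0.05 for WT over mock, beside medians of 0.006, -0.0048 and -0.0098 over all probe sets. When array number entered the fit as a block, limma called 2 of the 17 in WT over mock and 1 in A384T over WT, against 8.66% and 0.589% of all probe sets.

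**Figure D1:**
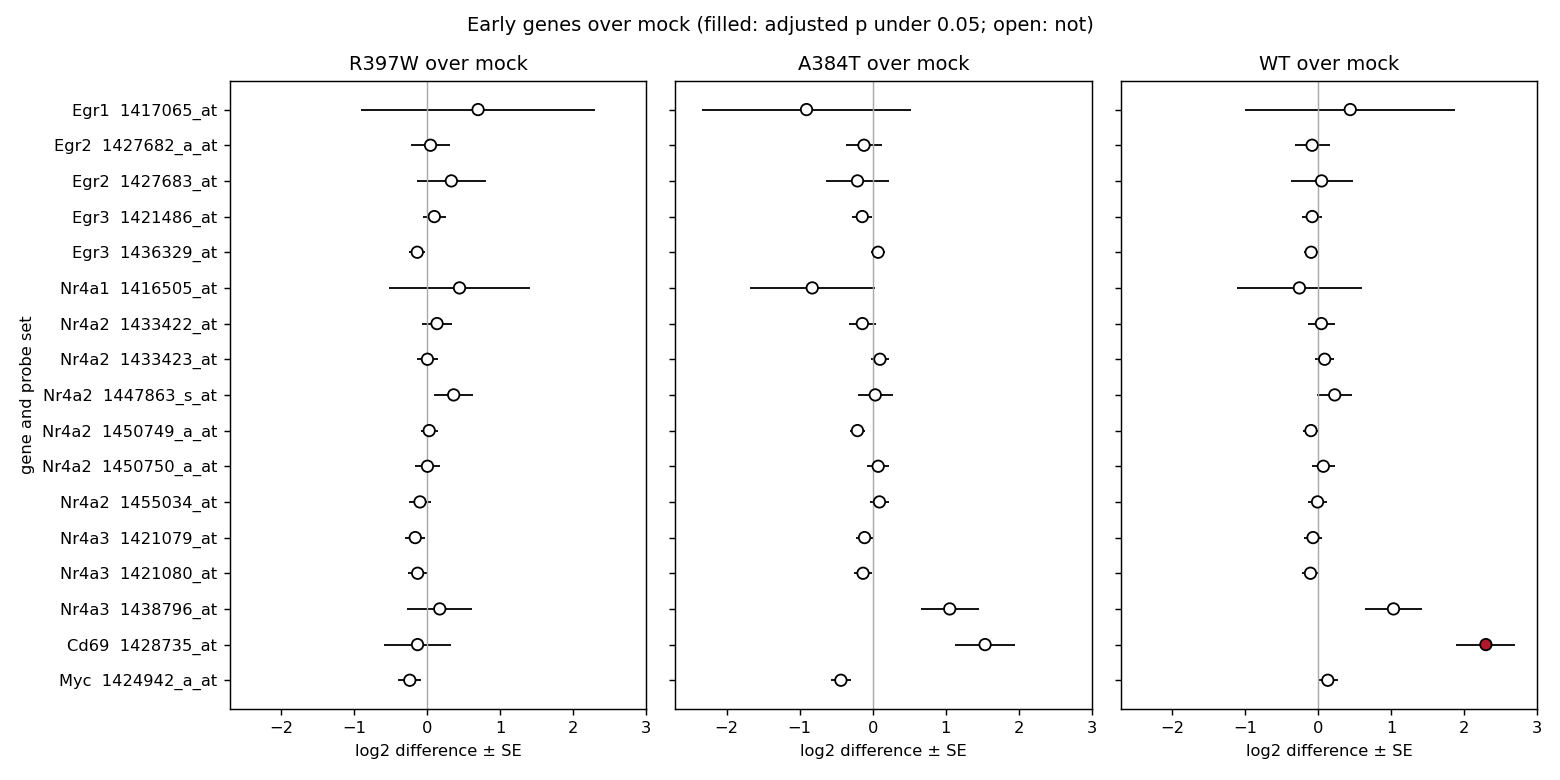
Log2 difference of each of the 17 probe sets in R397W over mock, A384T over mock and WT over mock (horizontal axis), with 1 row a probe set and horizontal bars of 1 SE. Filled points were called at an adjusted p under 0.05; the only filled point is Cd69 in WT over mock, and the widest bars belong to Egr1 and Nr4a1.

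Without the block, Cd69 was the only one of the 8 genes called in any comparison. It was higher with WT FoxP3 than with the empty vector and lower with R397W FoxP3 than with WT FoxP3. Its values were -0.36 and 0.28 on the R397W arrays, 1.88, 2.31 and 0.70 on the A384T arrays, 2.49, 2.10 and 2.58 on the WT arrays, and 0, -0.45 and 0.72 on the mock arrays. All 3 WT arrays stood above every mock and R397W array, and the A384T arrays reached down to the highest mock array. The mean was 2.39 ± 0.26 with WT FoxP3 and 0.09 ± 0.59 with the empty vector (SD, n = 3 each). In WT over mock the difference was 2.30 ± 0.41 (SE), or 4.91-fold (adjusted p = 0.012). In R397W over WT it was -2.43 ± 0.45 (adjusted p = 0.0218), with both R397W arrays below all WT arrays. R397W over mock gave -0.13 ± 0.45, with a 95% interval of -1.14 to 0.87.

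A384T FoxP3 lay between the others at Cd69, and none of its comparisons was called with all arrays in the fit. A384T over mock gave 1.54 ± 0.41 (adjusted p = 0.0897). A384T over WT gave -0.76 ± 0.41 with a 95% interval of -1.66 to 0.14, which holds 0. In R397W over A384T the groups did not overlap, and the difference was -1.67 ± 0.45 (adjusted p = 0.12). Both comparisons passed the test without the third A384T array, with 2.01 in A384T over mock (adjusted p = 0.0141) and -2.14 in R397W over A384T (adjusted p = 0.0218). With each array left out in turn, the Cd69 difference was 2.03 to 2.61 in WT over mock and -2.75 to -2.11 in R397W over WT. Each Cd69 call was nevertheless lost in some of the smaller fits. That of WT over mock was lost without the second mock array (adjusted p = 0.0564), and that of R397W over WT without any 1 of the 5 arrays compared (adjusted p = 0.0540 to 0.194). Without all arrays numbered 2, WT over mock gave 2.17 (adjusted p = 0.166) and R397W over WT -2.89. Without all arrays numbered 1 they gave 2.20 (adjusted p = 0.151) and -2.06. In WT over mock these smaller fits called 0.3% and 1.42% of all probe sets, against 3.21% with all arrays. The number of an array, taken from the sample titles, accounted for 0.0919% of the variation of Cd69 over the 11 arrays, and the FoxP3 form for 82.5%.

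Of the genes around CD69 in tissue egress, 4 were analysed here. None of the 4 was called in WT over mock, and 1 of 4 was lower in A384T over mock, as were 1.15% of all probe sets. That gene was Klf2, a factor that maintains S1pr1 transcription, with a difference of -0.96 ± 0.20 (adjusted p = 0.0314). Its values were -0.11 and -0.11 in R397W, -1.22, -1.16 and -0.46 in A384T, -0.67, -0.94 and -0.36 in WT, and 0, -0.01 and 0.05 in mock arrays, so that all A384T and WT arrays lay under all others. In WT over mock, S1pr4, another sphingosine phosphate receptor, gave -0.81 ± 0.24 (adjusted p = 0.14) and S1pr1 gave -0.70 ± 0.28 (adjusted p = 0.326). Array number was also used as a block, a term fitted over all groups at once. The WT and mock arrays met the pairing criterion, but the A384T and mock arrays did not. With the block 3 of these 4 genes were lower in WT over mock, among them S1pr4 (adjusted p = 0.000975) and S1pr1 (adjusted p = 0.00291). Of all probe sets the block called 8.66% there. The remaining gene, Ccr7, went the other way, with means of 0.07 in WT and 0.44 in A384T against -0.16 in mock arrays. The list's median was -0.68 in WT over mock and -0.62 in A384T over mock. Without the arrays numbered 2, a smaller fit, Klf2 was not called in A384T over mock, with a difference of -0.87 (adjusted p = 0.349). That fit called 0.269% of all probe sets in A384T over mock, against 2.7% with all arrays.

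**Figure D2:**
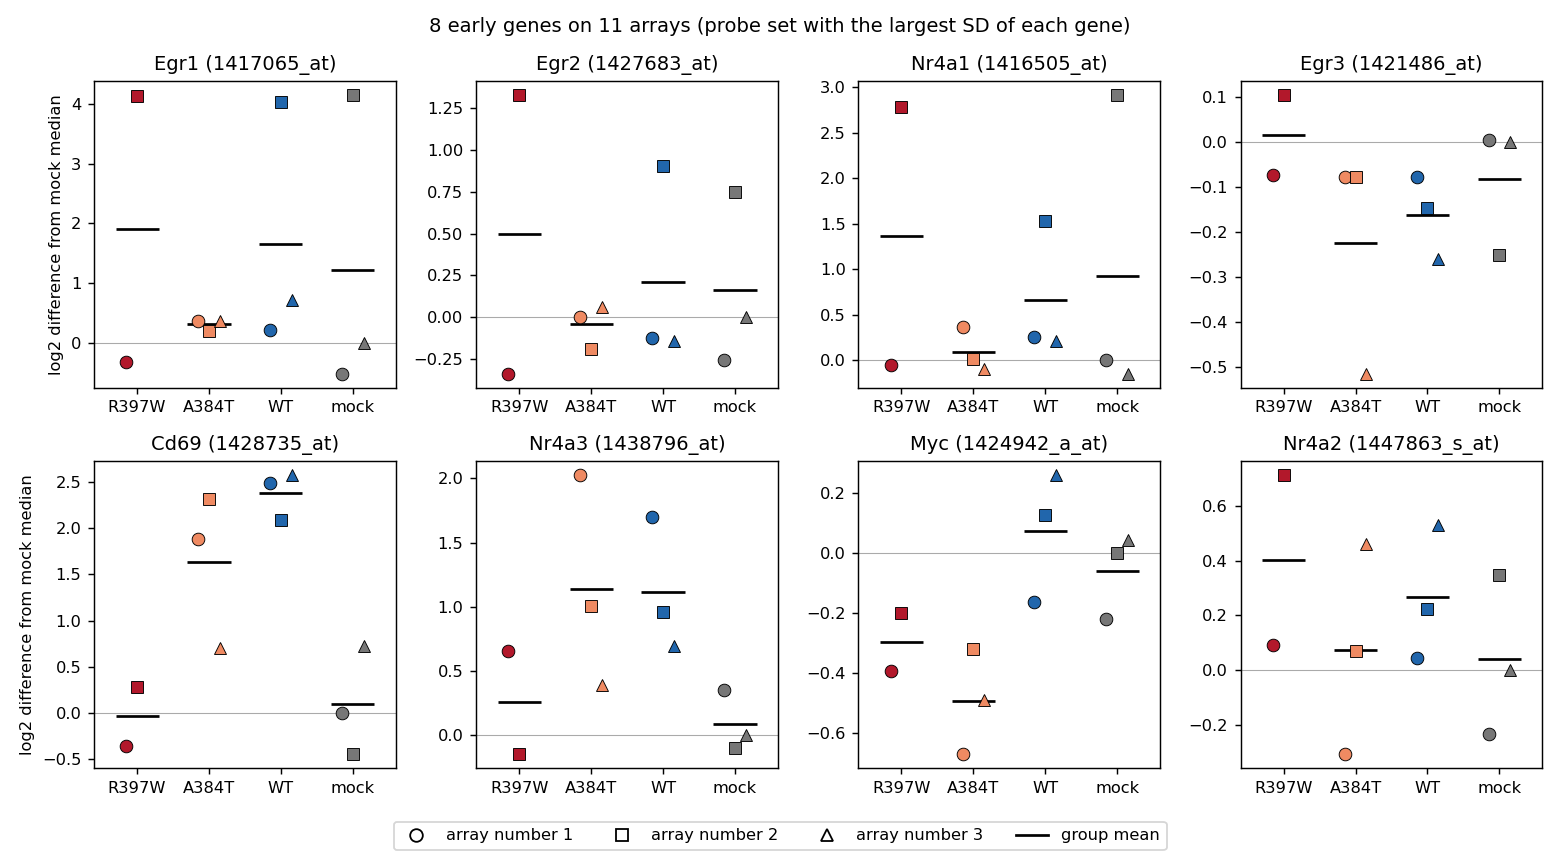
Log2 difference from the mock median (vertical axis, own scale in each panel) on each of the 11 arrays for the 8 genes, each through its probe set with the largest SD. Marker shape gives the array number and the black line the group mean. Egr1, Egr2 and Nr4a1 have 1 high array, numbered 2, in R397W, WT and mock, and Cd69 is high on WT and most A384T arrays.

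Egr1 varied more within the groups than all but 1 of the 34945 probe sets, the exception being a probe set of Cdkn1b. It had values of -0.32 and 4.13 on the R397W arrays, 0.35, 0.20 and 0.35 on the A384T arrays, 0.21, 4.02 and 0.71 on the WT arrays, and -0.52, 4.15 and 0 on the mock arrays. R397W 2, WT 2 and mock 2 were high and reached nearly the same value, whereas A384T 2 was as low as the other A384T arrays. Relative to the other arrays of its group, the array numbered 2 was higher by 4.45 in R397W, 3.56 in WT and 4.41 in mock (21.3-fold in mock), and differed by -0.15 in A384T. All 3 groups with a high array overlapped one another. Egr1 had a within-group SD of 2.12, against a median of 0.177 over all probe sets. The comparisons of FoxP3 forms therefore had wide errors: 0.70 ± 1.61 for R397W over mock, -0.91 ± 1.44 for A384T over mock and 0.44 ± 1.44 for WT over mock (adjusted p = 1, 0.892 and 0.967).

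Nr4a1 followed the same arrays at a smaller size. It had -0.06 and 2.78 in R397W, 0.37, 0.01 and -0.10 in A384T, 0.26, 1.53 and 0.21 in WT, and 0, 2.91 and -0.15 in mock arrays. The array numbered 2 stood above the others of its group by 2.84 in R397W, 1.29 in WT and 2.99 in mock, and differed from them by -0.12 in A384T. Its within-group SD of 1.27 ranked 26 of 34945. No comparison of Nr4a1 was called (lowest adjusted p = 0.739), and the difference was 0.44 ± 0.96 for R397W over mock, -0.83 ± 0.86 for A384T over mock and -0.26 ± 0.86 for WT over mock.

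Egr2 had the pattern at both of its probe sets. At 1427683_at the values were -0.34 and 1.33 in R397W, 0.0019, -0.19 and 0.06 in A384T, -0.12, 0.91 and -0.14 in WT, and -0.25, 0.75 and 0 in mock arrays. At 1427682_a_at they were -0.24 and 0.72 in R397W, 0.11, 0.06 and 0.06 in A384T, 0.06, 0.28 and 0.0021 in WT, and -0.05, 0.63 and 0 in mock arrays. R397W 2, WT 2 and mock 2 were again the highest of their groups, and A384T 2 was not. Over the 11 arrays, the Pearson correlation was 0.954 between Egr1 and Egr2 (1427683_at) and 0.947 between Egr1 and Nr4a1, both as descriptions over arrays of which these 3 were high.

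Array number accounted for 63.5% of the variation of Egr1 over the 11 arrays, 52.6% of that of Nr4a1 and 53.5% of that of Egr2 (1427683_at), and the FoxP3 form for 11.3%, 15.9% and 11.6%. The medians over all probe sets were 26.6% for array number and 28.8% for FoxP3 form. Array number also took 57.8% at Nr4a2 1447863_s_at and 57.1% at Nr4a3 1421079_at, so a large share was not particular to Egr1, Nr4a1 and Egr2. What the arrays numbered 2 shared is not stated in the labels, and its part in these values was not tested. The median of the CD4 T cell markers was the highest of its group on the array numbered 2 in all 4 groups, with 0.29 on R397W 2, 0.22 on A384T 2, -0.05 on WT 2 and 0.07 on mock 2, against -0.38 to 0 on the other arrays. Its part in these values was not tested. The B cell marker median was also the highest of its group on R397W 2 (-0.11), WT 2 (-0.09) and mock 2 (0.0021). The other arrays of these groups had -0.16 in R397W, -0.12 and -0.24 in WT, and -0.04 and 0 in mock. On A384T 2 the B cell median was the lowest of its group (-0.15, against -0.05 and -0.04). At Egr1, too, the array numbered 2 was the highest in R397W, WT and mock and the lowest in A384T. The B cell differences were small, and WT 1 and WT 3 stood in the opposite order. The part of these markers was not tested. Macrophage and dendritic cell marker medians on R397W 2, A384T 2, WT 2 and mock 2 were 0.0013, -0.04, 0.03 and 0.0071. They were the highest of their group in WT and mock, but not in A384T or in R397W, where R397W 1 had 0.033. CD8 T and NK cell marker medians were the lowest of their group on the array numbered 2 in all 4 groups. They were -0.0013, -0.014, -0.046 and -0.010 in the same order, and their part was not tested. For all 17 probe sets, the array numbered 2 was the highest of its group at 13 in R397W, 5 in A384T, 10 in WT and 10 in mock, while over all probe sets that array was highest at 46%, 27.4%, 34.9% and 34.9%.

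**Figure D3:**
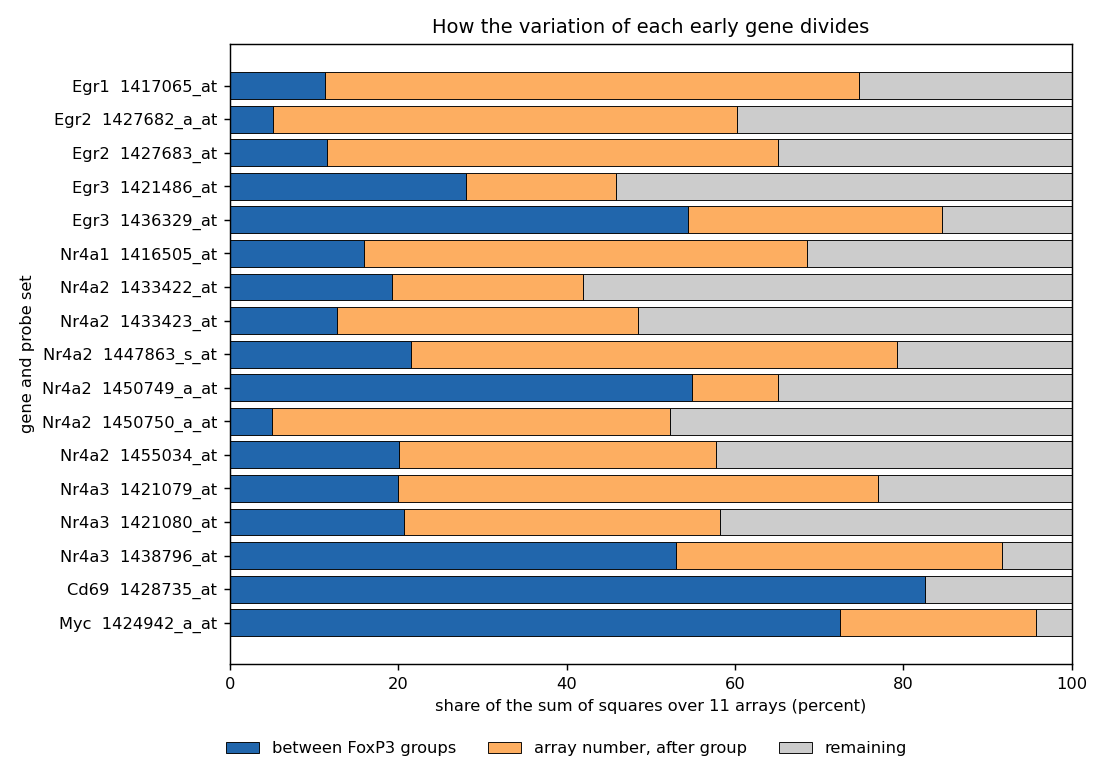
Share of the sum of squares over the 11 arrays (horizontal axis, percent) that lay between the FoxP3 groups, with array number after the group, and in the remainder, for each of the 17 probe sets. Cd69 and Myc have the largest shares between FoxP3 groups, 82.5% and 72.4%, and Egr1 has the largest share with array number, 63.5%.

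Nr4a3 differed between its probe sets. At 1438796_at it had 0.66 and -0.14 in R397W, 2.02, 1.00 and 0.39 in A384T, 1.70, 0.96 and 0.70 in WT, and 0.35, -0.10 and 0 in mock arrays. All WT and A384T arrays were above all mock arrays, although A384T 3 cleared the highest mock array only narrowly and R397W 1 stood above A384T 3. The difference was 1.03 ± 0.40 in WT over mock (adjusted p = 0.288) and 1.06 ± 0.40 in A384T over mock (adjusted p = 0.275). With array number as a block, WT over mock passed the test (adjusted p = 0.00485). The array numbered 1 was the highest of its group in all 4 groups. R397W over WT gave -0.86 ± 0.44 (adjusted p = 0.565). The other probe sets of Nr4a3, 1421079_at and 1421080_at, stayed between -0.28 and 0.18 on all 11 arrays, so the probe sets disagreed.

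Myc had its lowest mean with A384T FoxP3, but the A384T and R397W arrays overlapped (R397W over A384T 0.20 ± 0.16, adjusted p = 0.755). Its values were -0.39 and -0.20 on the R397W arrays, -0.67, -0.32 and -0.49 on the A384T arrays, -0.16, 0.13 and 0.26 on the WT arrays, and -0.22, 0 and 0.04 on the mock arrays. All A384T arrays lay under all WT and mock arrays, and both R397W arrays lay under all WT arrays. A384T over WT gave -0.57 ± 0.14 (adjusted p = 0.388), which passed the test with array number as a block (adjusted p = 0.0283). A384T over mock gave -0.43 ± 0.14 (adjusted p = 0.179), WT over mock gave 0.13 ± 0.14, and R397W over WT gave -0.37 ± 0.16 (adjusted p = 0.419). None of the Myc differences was called without the block.

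No comparison of Egr3 or Nr4a2 was called. The 2 probe sets of Egr3 lay between -0.52 and 0.10 on all arrays, and their 12 differences between groups lay between -0.21 and 0.24 (lowest adjusted p = 0.557). The 6 probe sets of Nr4a2 lay between -0.43 and 0.71, and their 36 differences between -0.21 and 0.36 (lowest adjusted p = 0.473). The 95% intervals of these differences reached from -0.46 to 0.58 for Egr3 and from -0.72 to 0.95 for Nr4a2. The widest of the 8 probe sets was Nr4a2 1447863_s_at, with 0.09 and 0.71 in R397W, -0.31, 0.07 and 0.46 in A384T, 0.05, 0.22 and 0.53 in WT, and -0.23, 0.35 and 0 in mock arrays. Its SD over the 11 arrays was 0.315, above the median of 0.185 over all probe sets and above the 0.290 of Egr2 1427682_a_at. It was highest on the array numbered 2 in R397W and mock, and on the array numbered 3 in A384T and WT. Unlike Egr2, its close relative, Egr3 was not high on R397W 2, WT 2 and mock 2 together.

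**Figure D4:**
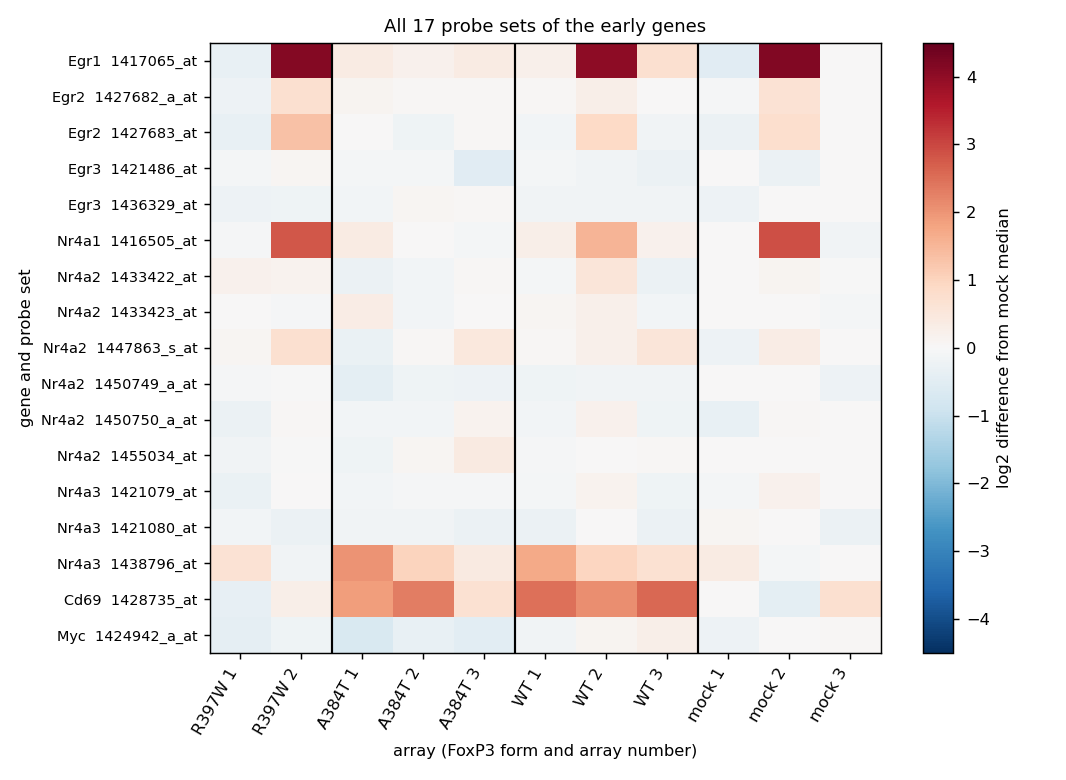
Log2 difference from the mock median (colour, red above and blue below 0) for the 17 probe sets (rows) on the 11 arrays (columns, from R397W through A384T and WT to mock). The darkest cells are Egr1 on R397W 2, WT 2 and mock 2, with Nr4a1 next on R397W 2 and mock 2, and the Cd69 row is red in the WT and A384T columns.

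Other early genes of T cell stimulation, in a list of 23, were called in several comparisons. In WT over mock, 6 of 23 genes were higher and 0 lower (Ier5, Klf10, Nfkbia, Rel, Tnf and Tnfrsf9), with a median over the list's probe sets of 0.52. In A384T over mock 4 were higher (Nfkbia, Rel, Tnf and Tnfrsf9) with a median of 0.46, and in R397W over mock 0 were called, with a median of -0.13. In each of R397W over WT and R397W over A384T 3 were lower (Nfkbia, Tnf and Tnfrsf9), and in A384T over WT 0 were called. The 23 genes had 36 probe sets. Higher calls made up 1.81% of all probe sets in WT over mock and 1.55% in A384T over mock. For R397W, lower calls made up 1.19% against WT and 1.08% against A384T. Calls of either direction were 0% in R397W over mock and 0.114% in A384T over WT. Tnfrsf9, the costimulatory receptor 4-1BB, had the largest difference, 4.13 ± 0.30 in WT over mock (adjusted p = 0.0000696) and -4.14 ± 0.33 in R397W over WT (adjusted p = 0.000197). Tnf, an inflammatory cytokine, gave 3.06 ± 0.44 in WT over mock (adjusted p = 0.00361), Klf10, a zinc-finger repressor, 1.40 ± 0.33 (adjusted p = 0.0483), and Rel, an NF-κB subunit, 1.37 ± 0.31 (adjusted p = 0.0446). With array number as a block, 11 genes were higher and 2 lower in WT over mock, where the block called 8.66% of all probe sets. Without the arrays numbered 2 only Tnfrsf9 was called, in WT over mock and in A384T over mock. There that fit called 0.3% and 0.269% of all probe sets. In that smaller fit Tnf gave 3.45 in WT over mock (adjusted p = 0.1), Klf10 1.16 (adjusted p = 0.498) and Rel 0.95 (adjusted p = 0.649). Probe sets disagreed for some of these genes: in WT over mock Tnfrsf9 at 1421481_at gave -0.09 and Nfkbia at 1420089_at gave -0.56, neither of them called.

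Single genes of that list also differed by array number. Btg2, an antiproliferative gene, had -2.48 and 0.13 in R397W, -3.44, -0.66 and -0.29 in A384T, -2.85, -0.39 and -0.37 in WT, and -2.02, 0.22 and 0 in mock arrays at 1416250_at, so that it was low on all 4 arrays numbered 1. Array number took 91.5% of its variation. Junb, an AP-1 subunit, had -2.08 and 0.21 in R397W, -0.09, 1.01 and 0.75 in A384T, 0.01, 1.58 and 1.24 in WT, and -1.55, 0.26 and 0 in mock arrays, also lowest on number 1 in each group. Fos, another AP-1 subunit, had -0.65 and 0.50 in R397W, 0.88, 0.33 and 1.41 in A384T, 1.14, 2.23 and 1.57 in WT, and -0.38 to 0.80 in mock arrays. Fos was thus highest on the array numbered 2 in R397W, WT and mock and lowest there in A384T, as at Egr1, but array number took only 10.3% of its variation and the FoxP3 form 65.8%. These 3 genes were picked after their values were seen.

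Genes tied to EGR2 and EGR3 in T cells, in a list of 12 with their co-repressors, included 3 that were higher and 0 lower in WT over mock. The 12 genes had 22 probe sets. Of all probe sets 1.81% were called higher and 1.4% lower there, and 1.55% and 1.15% in A384T over mock. Nrn1, the membrane-anchored protein neuritin, gave 3.27 ± 0.35 (adjusted p = 0.000672), Sema7a, an anchored semaphorin, 2.48 ± 0.44 (adjusted p = 0.0123), and Nab2, a co-repressor of EGR proteins, 0.97 ± 0.19 (adjusted p = 0.0237). Nrn1 was high on all WT and A384T arrays and was not set apart on the arrays numbered 2, with -0.03 and 0.31 in R397W, 4.25, 4.12 and 2.996 in A384T, 3.49, 3.17 and 2.74 in WT, and -0.67, 0.28 and 0 in mock arrays. In A384T over mock 1 was higher (Nrn1) and 1 lower (Rnf128, the anergy-linked ubiquitin ligase GRAIL, -0.83 ± 0.15, adjusted p = 0.0163). Nab2 gave -0.80 ± 0.19 in A384T over WT (adjusted p = 0.37), which passed the test with the block (adjusted p = 0.0478). In R397W over WT, Nrn1 and Sema7a were lower and Rnf128 was higher, where 1.19% of all probe sets were called lower and 0.959% higher. The list's median in WT over mock was -0.21, of the opposite sign to its calls. In WT over mock the block gave 3 higher and 4 lower genes and called 8.66% of all probe sets. Without the arrays numbered 2 none of the 12 was called in WT over mock or A384T over mock. There that fit called 0.3% and 0.269% of all probe sets. In that smaller fit Nrn1 gave 3.45 in WT over mock (adjusted p = 0.0869) and 3.96 in A384T over mock (adjusted p = 0.0621), no less than with all arrays. The other Sema7a probe set, 1422040_at, gave -0.22 in WT over mock and was not called.

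Of 7 genes tied to NR4A factors, 3 were higher in WT over mock and the same 3 in A384T over mock. The 7 genes had 14 probe sets, and of all probe sets 1.81% and 1.55% were called higher in these comparisons. The 3 genes were Ikzf2 and Ikzf4, which encode the regulatory T cell factors Helios and Eos, and Tox, an HMG-box factor. Ikzf2 gave 1.95 ± 0.20 in WT over mock (adjusted p = 0.000484) and -1.59 ± 0.22 in R397W over WT (adjusted p = 0.00433). Tox gave 1.36 ± 0.26 in WT over mock and 1.83 ± 0.26 in A384T over mock (adjusted p = 0.0176 and 0.00378). In R397W over WT Ikzf2 and Ikzf4 were lower, and in R397W over A384T Ikzf2 and Tox, against 1.19% and 1.08% of all probe sets. The list's median was 0.56 in WT over mock. Without the arrays numbered 2 only Ikzf2 was still called, in both WT and A384T over mock. That fit called 0.3% and 0.269% of all probe sets in these comparisons. In it Ikzf4 gave 1.68 and Tox 1.16 in WT over mock (adjusted p = 0.396 and 0.159). With all arrays and without the block, Egr1, Egr2, Egr3 and the 3 Nr4a genes themselves had no call in any comparison.

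Around MYC, 1 of 10 network genes was higher and 0 lower in both WT over mock and A384T over mock. It was Mxd1, which encodes a partner of MAX that opposes MYC, with 2.76 ± 0.29 in WT over mock (adjusted p = 0.000672), 2.32 ± 0.29 in A384T over mock (adjusted p = 0.00204) and -2.42 ± 0.33 in R397W over WT (adjusted p = 0.00408). Among 18 MYC target genes, 3 were higher and 0 lower in WT over mock, namely Odc1, the first enzyme of polyamine synthesis, with 2.48 ± 0.30 (adjusted p = 0.00141), Tfrc, the transferrin receptor, with 2.09 ± 0.29 (adjusted p = 0.00322), and Ccnd2, cyclin D2, with 0.77 ± 0.12 (adjusted p = 0.00744). In A384T over mock 2 were higher (Odc1 and Tfrc). In R397W over mock 0 of either list were called. The network genes had 28 probe sets and the targets 42. Of all probe sets, 1.81% were called higher in WT over mock and 1.55% in A384T over mock. The medians in WT over mock were -0.02 for the network and 0.15 for the targets. With array number as a block, 2 network genes were higher and 1 lower in WT over mock, where the block called 8.66% of all probe sets. Without the arrays numbered 2, Mxd1 and Tfrc were still called in WT over mock and neither in A384T over mock, where Mxd1 at 1455104_at gave 2.53 (adjusted p = 0.0692) and Tfrc at 1452661_at 1.02 (adjusted p = 0.299). Odc1 gave 2.30 in WT over mock in that fit (adjusted p = 0.174). Of all probe sets the fit called 0.3% in WT over mock and 0.269% in A384T over mock. Myc itself gave 0.13 ± 0.14 in WT over mock.

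**Figure D5:**
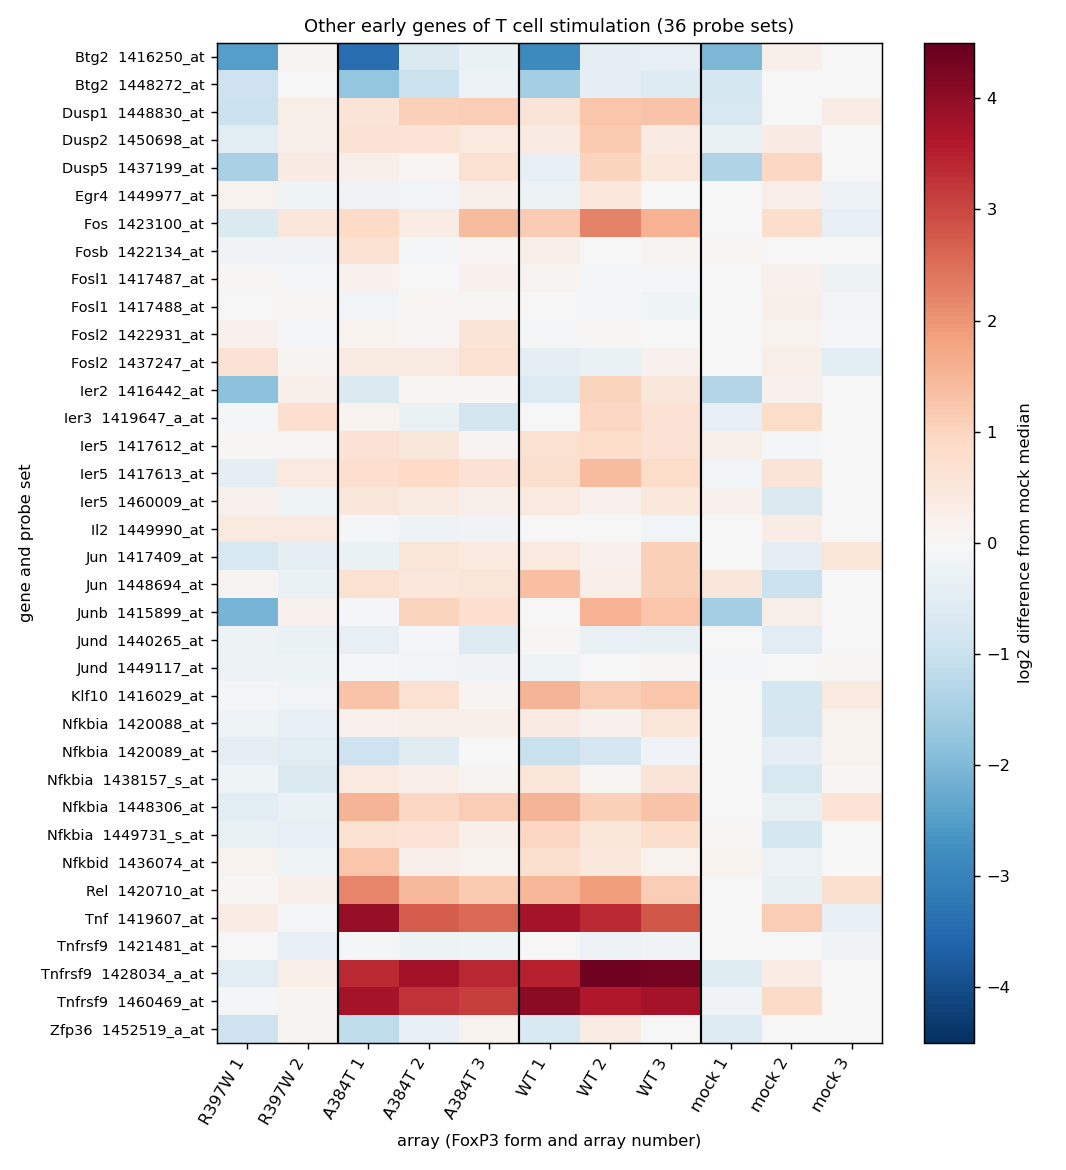
Log2 difference from the mock median (colour, red above and blue below 0) for 36 probe sets of 23 other early genes (rows) on the 11 arrays (columns, from R397W through A384T and WT to mock). Tnfrsf9 at 1428034_a_at and 1460469_at and Tnf are red on all WT and A384T arrays, and Btg2 at 1416250_at is blue on the 4 arrays numbered 1.

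The genes most like each member over the 11 arrays, by Pearson correlation over all other single-symbol probe sets, were Cep112 (0.962) and Gna13 (0.960) for Egr1, Fam32a (0.963) and Kcnk5 (0.954) for Egr2, and Egr2 at 1427682_a_at (0.952) and Csnk1d (0.950) for Nr4a1. For Cd69 they were Nfkbiz and Btf3l4 (0.971 each), for Nr4a3 Coa8 (0.982) and Thyn1 (0.977), and for Myc Rprd1a (0.968) and Igk (0.961). For Egr3 they were Ankrd17 (0.958) and Wdfy4 (0.944), and for Nr4a2 Sik1 (0.927) and Sema4b (0.907). Each was picked as the highest among the single-symbol probe sets of other genes, over 11 arrays that share groups and array numbers, and describes likeness alone. A correlation leaves out the size of the changes. The SD over the arrays was 0.203 for Cep112 against 1.89 for Egr1, and 1.06 for Nfkbiz against 1.18 for Cd69. Igk (0.116), Fam32a (0.122) and Wdfy4 (0.132) were among those under the median of 0.185 over all probe sets.

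Checks of the labels were limited by the centring. Foxp3 had 1 single-symbol probe set, 1420765_a_at, with values of -0.39 to -0.19 in R397W, 0.10 to 0.33 in A384T, -0.07 to 0.11 in WT and -0.34 to 0.26 in mock arrays, and no comparison of it was called. Whether that probe set reads the FoxP3 of the vector could not be settled here, so it does not check the labels. Cell type markers could be read only as differences. Marker medians lay between -0.38 and 0.29 on all 11 arrays for CD4 T cells (5 of 6 genes measured), between -0.24 and 0.0021 for B cells (4 of 5), between -0.09 and 0.03 for macrophages and dendritic cells (6 of 6) and between -0.05 and 0.11 for CD8 T and NK cells (4 of 5). In A384T over mock Cd28 and Adgre1 were lower, and in WT over mock and A384T over mock Klrd1 was lower, and no other marker was called over mock; their part in the differences of Cd69 was not tested. No 2 arrays held identical values.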

How the data were processed

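Total RNA of 11 samples was labelled with biotin and hybridised to 1 array each. The deposited values are log2 values for which the submitters' processing notes name RMA without a version. That method subtracts background, applies quantile normalization between arrays and combines the probes of a probe set into 1 log value. At each of the 45101 probe sets the mock median was exactly 0. No source used here states that centring or the log base, and base 2 was assumed. A filter on dim probe sets could not be applied to centred values.

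Symbols came from the platform annotation: 34945 probe sets had 1 symbol after 64 controls were left out, 932 had several and 9160 none listed. Groups came from the sample titles. limma 3.58.1 (R 4.3.3) fitted 1 mean a group over all 11 arrays (7 residual degrees of freedom), followed by eBayes for 6 comparisons and Benjamini-Hochberg adjustment over the 34945 probe sets. The fit was tested on simulated data. Array number was tried as a block. The WT and mock arrays of the same number deviated together (r = 0.504 to 0.672), as did the A384T and WT arrays (r = 0.153 to 0.719), which met the criterion of r over 0.1 in all 3 pairs. A384T and mock arrays did not (lowest r = 0.0858), and R397W had only 2 numbers. Blocked values are therefore given in the results for WT over mock and A384T over WT. They come from 1 fit over all 11 arrays, so groups that did not meet the criterion, or could not be judged, also enter their errors.

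The members, the 6 lists of 75 genes and the tests were chosen with earlier results of these data known. All 17 member probe sets are named. From each list up to 4 called genes with the largest change were named in WT over mock and up to 2 in each other comparison, or up to 2 where none was called; part of these are in the text. The 2 genes most like each member were named through its probe set with the largest SD. Promoter windows came from RefSeq (GRCm38.p6). Figures used matplotlib 3.10.9 and pandas 2.3.3 under Python 3.11.15. Alternatives were the block, another variance prior, only the compared groups, centred arrays, other sets of probe sets, a fold threshold, each array left out, and all arrays numbered 1; leaving out all arrays numbered 2, or mock 2, WT 2 and R397W 2, was chosen after seeing the data.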

Additional observations from a re-analysis of the deposited data

How the results depend on the processing

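Over 6 comparisons, 0 or 1 of the 17 probe sets was called. With array number as a replicate block, 2 were called in WT over mock (Cd69 and Nr4a3), 3 in A384T over mock (Cd69, Nr4a3 and Myc, with adjusted p = 0.0392, 0.00477 and 0.0187), 1 in A384T over WT (Myc), 2 in R397W over WT (Cd69 and Nr4a3, the last with adjusted p = 0.0121) and 1 in R397W over A384T (Nr4a3, adjusted p = 0.0112). In R397W over WT, A384T over mock and R397W over A384T the block called 6.4%, 8.36% and 6.51% of all probe sets; the numbers did not meet the pairing criterion in A384T over mock and could not be judged for R397W. Over all probe sets the block gave 3026 calls in WT over mock (1121 without it) and 206 in A384T over WT (40 without it). Over all alternatives the total was 94 to 2923 for A384T over mock (942 as reported), 105 to 3026 for WT over mock (1121 as reported), 2 to 2275 for R397W over A384T (641 as reported), 2 to 2238 for R397W over WT (752 as reported), 0 to 206 for A384T over WT (40 as reported), and 0 for R397W over mock throughout. Without the arrays numbered 1, the arrays numbered 2, or mock 2, WT 2 and R397W 2, 0 of the 17 were called in WT over mock. In that order, these smaller fits called 1.42%, 0.3% and 0.781% of all probe sets there, against 3.21% with all arrays. The call in R397W over WT was lost too, with 1 R397W array left. Leaving out each array in turn gave 0 calls in R397W over mock and A384T over WT, and 0 to 1 in the other 4 comparisons. The other alternatives left these 6 counts unchanged.

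Without the arrays numbered 2, differences that were not called turned in sign. Egr1 gave -0.056 for R397W over mock, 0.62 for A384T over mock, -0.67 for R397W over A384T, -0.78 for R397W over WT. Egr2 gave -0.21 for R397W over mock, 0.16 for A384T over mock, -0.0059 for WT over mock, -0.37 for R397W over A384T, -0.21 for R397W over WT, 0.16 for A384T over WT. Nr4a1 gave 0.21 for A384T over mock, 0.31 for WT over mock, -0.19 for R397W over A384T, -0.29 for R397W over WT. Sign also turned without the arrays numbered 1. Nr4a3 gave -0.096 for R397W over mock, -0.13 for A384T over WT. Cd69 gave 0.14 for R397W over mock. It turned with the block, too. Egr1 gave -0.093 for R397W over WT. Nr4a3 gave -0.037 for R397W over mock. Taking 1 mean a gene over its probe sets also turned signs. Egr2 gave -0.017 for WT over mock. Nr4a3 gave -0.041 for R397W over mock, -0.015 for A384T over WT. Leaving out 1 array turned the sign of these, given as lowest and highest values. Cd69 gave -0.45 to 0.19 for R397W over mock. Egr1 gave -1.53 to 2.92 for R397W over mock, -1.77 to 0.57 for A384T over mock, -0.75 to 1.91 for WT over mock, -0.62 to 3.82 for R397W over A384T, -1.97 to 2.48 for R397W over WT. Egr2 gave -0.50 to 1.17 for R397W over mock, -0.42 to 0.084 for A384T over mock, -0.30 to 0.34 for WT over mock, -0.30 to 1.37 for R397W over A384T, -0.55 to 1.12 for R397W over WT, -0.43 to 0.090 for A384T over WT. Nr4a1 gave -0.98 to 1.86 for R397W over mock, -1.36 to 0.17 for A384T over mock, -0.79 to 0.74 for WT over mock, -0.15 to 2.69 for R397W over A384T, -0.72 to 2.12 for R397W over WT. Nr4a3 gave -0.23 to 0.57 for R397W over mock, -0.42 to 0.40 for A384T over WT. The cause of these changes was not tested. No call changed sign. Centring removed signal levels, so what dim signal limits could not be judged.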
